A study of Caenorhabditis elegans with 12 samples.

Results

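The genes described here encode the enzymes that activate fatty acids and start their breakdown by beta-oxidation in Caenorhabditis elegans: the acyl-CoA synthetases (acs), the acyl-CoA dehydrogenases (acdh), the acyl-CoA oxidases (acox) and the enoyl-CoA hydratases (ech). They were chosen by gene symbol alone, and 50 of the 17118 genes named on the array carried such a symbol: 23 acs, 12 acdh, 5 acox and 10 ech genes. Each gene was read through its brightest probe set that names a single gene. In 46 of the 50 this probe set passed the filter on low signal. The 4 that did not, acs-23, acs-24, acs-25 and ech-9, are described separately.

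Total RNA of whole worms was hybridised to 12 Affymetrix arrays in 4 groups of 3 biological replicates. The groups were wild type on control RNAi, wild type under spg-7 RNAi, the mutant atfs-1(tm4525) on control RNAi and the mutant under spg-7 RNAi. Both genotypes were of the N2 background, and all worms were synchronised by bleaching, grown in liquid culture and collected as L4 larvae, the last larval stage. ATFS-1 is a bZIP factor that turns on genes when mitochondria are stressed, and the spg-7 product belongs to a protease complex of the inner mitochondrial membrane. The series asks whether ATFS-1 carries a protective programme when spg-7 is knocked down. Since RNA came from whole animals, fewer cells of a type and less RNA per cell cannot be told apart in any value below.

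A fatty acid enters metabolism as a thioester of coenzyme A, made by an acyl-CoA synthetase. In mitochondria an acyl-CoA dehydrogenase then takes the first oxidation step and passes electrons towards the respiratory chain, while in peroxisomes an acyl-CoA oxidase takes the same step and passes electrons to oxygen. Enoyl-CoA hydratases add water in the next step in either organelle. In C. elegans the peroxisomal route also shortens the side chains of the ascaroside pheromones, and the mitochondrial family includes enzymes of a shunt that breaks down propionate.

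Arrays are named by their RNAi and genotype labels, on which every direction rests. The probe set of spg-7 read 753 ± 302 (SD, n = 3) on control RNAi and 14356 ± 7577 under spg-7 RNAi in wild type, and 383 ± 68.5 against 17958 ± 8123 in the mutant, so it was brighter, not dimmer, on every array labelled spg-7 RNAi. The probe set of atfs-1 read 411 ± 42.0 in wild type and 438 ± 74.1 in the mutant on control RNAi. Its place relative to the tm4525 lesion is not given in the sources used here, so it does not check the genotype. One array had the lowest yolk and sperm transcripts. The median log2 signal of 5 vitellogenins, the yolk proteins, was 6.46 on wild-type control RNAi replicate 1 and between 10.95 and 14.61 on the other 11 arrays. The median of 19 major sperm proteins was 12.15 on the same array and between 13.39 and 14.78 elsewhere, while that of 9 oocyte and eggshell markers was 8.54 on this array and ranged from 8.16 to 12.72 over all arrays. Wild-type spg-7 RNAi replicate 1 had the lowest oocyte median, 8.16, and the next lowest sperm median, 13.39, with a vitellogenin median of 11.89. Whether the worms differed in stage between arrays was not tested. All signals are on the linear MAS5 scale and all differences on the log2 scale. Differences were tested with limma over all 10385 genes that passed the filter, and the threshold for a call was an adjusted p (Benjamini-Hochberg) of 0.05.

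The first comparison asks how these genes respond to spg-7 RNAi in wild-type worms. Of the 46 members tested 3 were called: acs-19 rose, and acox-1.2 and ech-1.1 fell. Among all genes 4.73% were called, 3.29% as higher and 1.43% as lower, so 3 of 46 is near the background. Differences were positive in 15 members and negative in 31, with a median of -0.18 beside -0.04 over all genes. Unadjusted p was under 0.05 in 7 of 46 members and in 2090 of the 10385 genes.

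Among the synthetases, acs-19 encodes a relative of the human acetyl-CoA synthetase ACSS2, which makes acetyl-CoA from acetate. Its signal was 1805, 1594 and 1092 on the wild-type control arrays and 3977, 2818 and 2946 under spg-7 RNAi. The mutant arrays read 1838, 2041 and 2324 on control RNAi and 2527, 1694 and 1969 under spg-7 RNAi. All wild-type spg-7 RNAi arrays were thus above every other array, while the mutant groups overlapped. In wild type acs-19 rose 2.19-fold, from 1497 ± 366 to 3247 ± 635, a log2 difference of 1.13 ± 0.25 (SE, 95% confidence interval 0.59 to 1.67, adjusted p = 0.0252, limma). In the mutant the log2 difference was -0.02 (95% confidence interval -0.56 to 0.53, adjusted p = 0.982). The difference between the responses of the genotypes, mutant minus wild type, was -1.15 ± 0.35 and did not pass over all genes (unadjusted p = 0.00691, adjusted p = 0.671). The call in wild type held in 9 of the 12 fits that each left out 1 array. It was lost without the first (adjusted p = 0.0777) or the second (0.0583) replicate of wild type under spg-7 RNAi and without wild-type control replicate 3 (0.0967).

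Among the oxidases, acox-1.2 encodes a peroxisomal acyl-CoA oxidase of the group that acts in ascaroside synthesis. On the wild-type control arrays its signal was 604, 615 and 1180.4, and those under spg-7 RNAi read 344, 161 and 122. The mutant read 268, 386 and 306 on control RNAi and 660.0, 633 and 255 under spg-7 RNAi. The wild-type groups did not overlap, and the mutant groups did. In wild type acox-1.2 fell 4.02-fold, from 799.9 ± 329.6 to 209 ± 118, a log2 difference of -2.01 ± 0.47 (SE, 95% confidence interval -3.03 to -0.99, adjusted p = 0.0320, limma), the largest change among the 46 members in this comparison. In the mutant the log2 difference was 0.58 ± 0.47 (adjusted p = 0.699). The responses differed by 2.59 ± 0.66 (95% confidence interval 1.15 to 4.03), the largest such difference among the tested members, with an unadjusted p of 0.00212 and an adjusted p of 0.573 over all genes. In wild type the call was lost in 5 of the 12 fits that left out 1 array, with an adjusted p of up to 0.131 without wild-type control replicate 3, the array with the highest signal. The adjusted p was 0.0507 and 0.0509 without mutant control replicate 1 or 2 and, among wild-type arrays under spg-7 RNAi, 0.101 without replicate 2 and 0.0740 without replicate 3.

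Among the hydratases, ech-1.1 encodes a relative of the alpha subunit of the human mitochondrial trifunctional protein, which carries out later steps on long-chain substrates. Its signal was 255, 253 and 166 in wild type on control RNAi and 127, 76.7 and 36.6 under spg-7 RNAi. The mutant arrays read 374, 258 and 259 on control RNAi and 363, 343 and 254 under spg-7 RNAi. The wild-type groups did not overlap, the spg-7 RNAi arrays of wild type were the lowest 3 of all 12, and the mutant groups overlapped. In wild type ech-1.1 fell 3.11-fold, from 224 ± 50.5 to 79.98 ± 45.1, a log2 difference of -1.64 ± 0.42 (SE, 95% confidence interval -2.54 to -0.73, adjusted p = 0.0467, limma). In the mutant it was 0.11 ± 0.42 (adjusted p = 0.925), and the responses differed by 1.75 ± 0.59 (adjusted p = 0.714). The wild-type call is the least firm of the 3: the adjusted p was above the threshold in 11 of the 12 fits that left out 1 array, at up to 0.101. A second probe set of ech-1.1 gave a log2 difference of -1.26 (adjusted p = 0.0674 in a fit of all probe sets). Its close relative ech-1.2 read 2988 ± 339 and 2775 ± 678 in wild type, a log2 difference of -0.13 (adjusted p = 0.789).

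**Figure D1:**
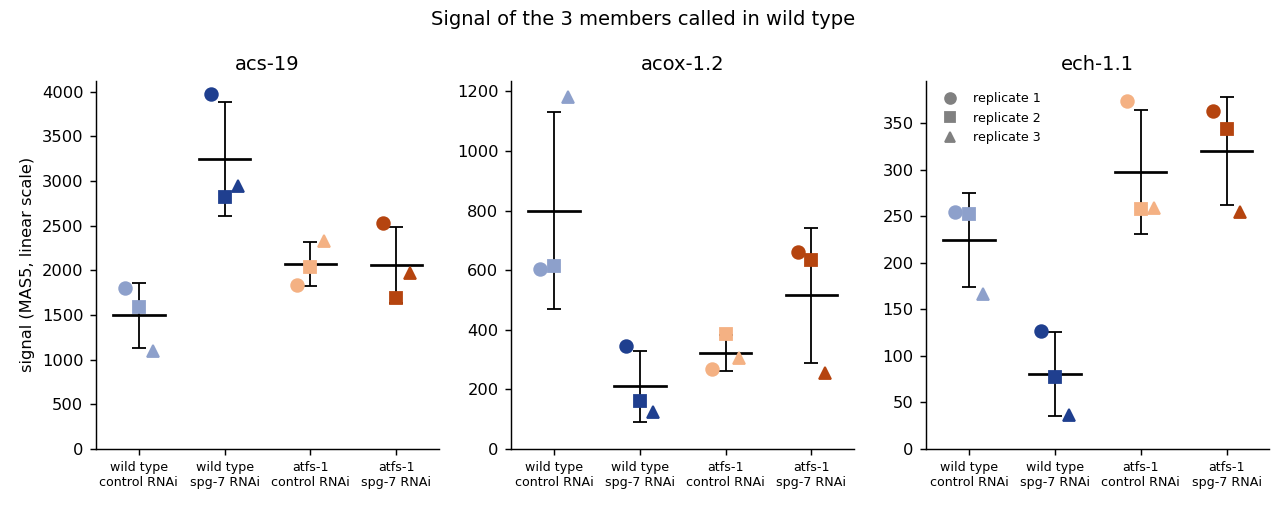
Signal of acs-19, acox-1.2 and ech-1.1 on each array by group, on the linear MAS5 scale from 0; bars are group means with SD over 3 arrays, and point shapes mark replicates. Wild-type means move from 1497 to 3247 for acs-19, from 799.9 to 209 for acox-1.2 and from 224 to 79.98 for ech-1.1, while the mutant groups overlap in each panel.

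Both acs-19 and ech-1.1 were read through probe sets that the array marks as able to bind transcripts of more than 1 gene, as were 20 of the 46 tested members. In the RefSeq table acox-1.2 lies next to acox-1.1, the oxidase best known for ascaroside synthesis, which read 699.9 ± 202 and 599 ± 199 in wild type, a log2 difference of -0.25 (adjusted p = 0.734). Across the 12 arrays the log2 signals most like that of acs-19 were those of sulp-7 (Pearson r = 0.97), coq-8 (0.94) and tomm-70 (0.93). For acox-1.2 they were Y71H2AM.11 (0.92), irg-8 (0.88) and mai-2 (0.88), and for ech-1.1 H20J04.1 (0.96), W03A5.1 (0.95) and irg-3 (0.94). These are descriptions over arrays that share the same 4 groups.

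The ratio of 3' to 5' actin signal was higher under spg-7 RNAi in both genotypes, with no overlap between RNAi groups. The log2 ratio of 3' to 5' actin signal, a measure of RNA integrity and labelling, was 0.82 to 0.85 in wild type under spg-7 RNAi, 0.43 to 0.62 on wild-type controls, 0.41 to 0.48 in the mutant on control RNAi and 0.54 to 0.69 in the mutant under spg-7 RNAi. Of the intestine, muscle and hypodermis marker lists, only muscle had medians that did not overlap between the wild-type groups. Of 9 intestine markers 1 rose in wild type, ges-1 (log2 difference 1.55, adjusted p = 0.0393, limma, lost in 9 of 12 fits that left out 1 array). Of 8 body wall muscle markers 1 fell, mup-2 (-1.12, adjusted p = 0.0183, lost in 2 of 12). Among all genes 3.29% were called higher and 1.43% lower. The median log2 signal of the muscle list was 13.56 to 13.70 on wild-type controls and 12.43 to 13.07 under spg-7 RNAi, against 13.33 to 13.61 and 13.02 to 13.29 in the mutant. That of the intestine list was 10.10 to 10.27 and 9.93 to 11.36 in wild type, against 10.50 to 10.94 and 10.45 to 11.14 in the mutant. That of 7 hypodermis and cuticle markers, of which 0 were called, was 10.03 to 12.01 and 9.72 to 10.46 in wild type, against 10.13 to 10.48 and 10.89 to 11.11 in the mutant. The part of RNA quality and tissue makeup in the 3 calls was not tested.

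The other synthetases in wild type fall into those with separated groups and those without. The groups of 3 arrays did not overlap in 5 of the 46 members, 2 higher and 3 lower, beside 18.5% of all genes, 9.99% higher and 8.48% lower. The 2 not yet named were acs-21 and acs-3. The signal of acs-21 was 96.2, 50.2 and 113.2 on control RNAi and 301, 178 and 169.8 under spg-7 RNAi, a log2 difference of 1.35 (adjusted p = 0.0928). In the mutant acs-21 was 76.6, 131 and 85.2 against 134, 296 and 179, a difference of 1.02 (adjusted p = 0.456) with no overlap either. It was the one member whose groups separated upwards in both genotypes. The signal of acs-3, a synthetase that acts with the nuclear receptor NHR-25 in epidermal lipid handling, was 268, 74.1 and 129.6 on control RNAi and 59.1, 61.1 and 54.98 under spg-7 RNAi, with a log2 difference of -1.23 (adjusted p = 0.136).

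Replicates of acs-2 spread widely. It encodes a mitochondrial acyl-CoA synthetase that is a fasting-induced target of the nuclear receptor NHR-49. Its signal was 2725, 252 and 1299 in wild type on control RNAi and 2457, 1409 and 1185 under spg-7 RNAi. The mutant values were 1123, 3267 and 552 on control RNAi and 446, 579 and 625 under spg-7 RNAi. The wild-type groups overlapped, while all mutant spg-7 RNAi arrays lay below all wild-type spg-7 RNAi arrays. The log2 differences were 0.73 ± 0.78 in wild type (adjusted p = 0.665), -1.22 ± 0.78 in the mutant (0.655) and -1.95 ± 1.11 between the responses (0.844). Leaving out single arrays moved the wild-type value between -0.23 and 1.48. A second probe set of acs-2 gave 1.33 ± 0.64 in wild type (adjusted p = 0.285, limma, in a fit of all probe sets). In the same fit it gave -0.71 ± 0.64 in the mutant (0.748) and -2.04 ± 0.91 between the responses (0.798). The gene nhr-49 itself read 1612 ± 241 and 2076 ± 246 in wild type (log2 difference 0.37, adjusted p = 0.417).

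The brightest acs probe set was that of acs-4, at 2266, 2165 and 1199.8 in wild type on control RNAi and 2502, 2378 and 2082 under spg-7 RNAi. Its mutant arrays read 2724, 1986 and 2266, then 2833, 2036 and 2083, and its groups overlapped in both genotypes. A second tested probe set was at hand for 9 members, and its wild-type difference had the same sign in 7 of them and the opposite sign in acs-4 and acs-13. The synthetases acs-20 and acs-22 are relatives of the mammalian fatty acid transport proteins and are needed for the barrier of the cuticle. In acs-20 the log2 difference was -1.12 ± 0.55 in wild type (adjusted p = 0.281) and 0.92 ± 0.55 in the mutant (0.629), and the responses differed by 2.04 ± 0.77 (0.714). In acs-22 it was 0.13 in each genotype. For acs-1, which activates branched-chain fatty acids, the values were -0.40 and 0.65. Over all 20 tested synthetases the median was -0.30 in wild type, with 6 positive and 14 negative, and 0.13 in the mutant.

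The acyl-CoA dehydrogenases held no called gene. Of 12 tested 0 passed in wild type with limma, and 0 had an unadjusted p under 0.05. The differences were positive in 3 and negative in 9, from -1.37 to 0.39, with a median of -0.24. The enzyme acdh-1 takes the first step of the propionate shunt and is a widely used reporter of diet. Its signal was 9964, 4612 and 8128 in wild type on control RNAi and 1384, 4864 and 7432 under spg-7 RNAi. Mutant arrays read 7253, 7308 and 5653 against 7064, 12272 and 4007. The groups overlapped in both genotypes, and the lowest array was wild-type spg-7 RNAi replicate 1. The log2 difference was -0.97 ± 0.57 in wild type (adjusted p = 0.379) and 0.07 ± 0.57 in the mutant (0.965). Without single arrays the wild-type value ranged from -1.47 to -0.26.

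The next shunt enzyme, ech-6, was the brightest of the hydratases. It read 11003, 7937 and 8569 in wild type on control RNAi and 8166, 6891 and 7245 under spg-7 RNAi. The mutant read 8525, 7290.2 and 7545 on control RNAi and 6989, 8449 and 5988 under spg-7 RNAi. The RNAi groups overlapped in both genotypes, and the log2 difference was -0.29 ± 0.20 in wild type (adjusted p = 0.450) and -0.14 ± 0.20 in the mutant (0.807). The later shunt genes hach-1 and hphd-1 had wild-type differences of -0.54 (0.262) and -0.65 (0.171), and alh-8 -0.16 (0.758). Of 10 genes of propionate breakdown, a list that includes acdh-1 and ech-6, 0 were called in any of the 5 comparisons, and the median in wild type was -0.12.

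**Figure D2:**
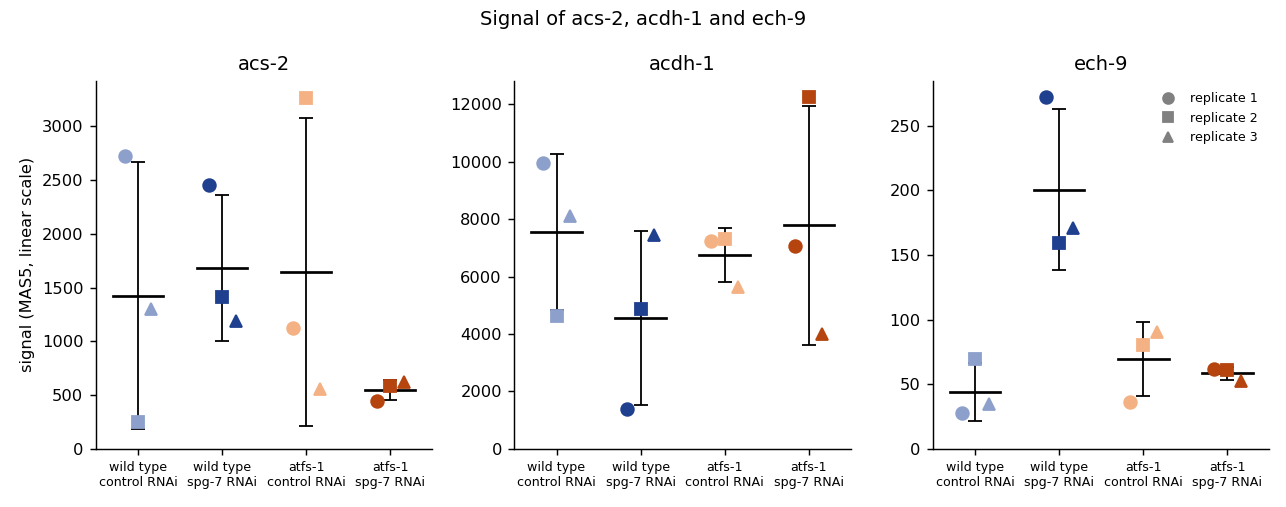
Signal of acs-2, acdh-1 and ech-9 on each array by group, on the linear MAS5 scale from 0; bars are group means with SD over 3 arrays, and point shapes mark replicates. Replicates of acs-2 run from 252 to 2725 in wild type on control RNAi, while the 3 wild-type spg-7 RNAi arrays of ech-9, at 159 to 272, lie above its other 9 arrays.

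None of the long- and medium-chain dehydrogenases passed the test. The log2 difference of acdh-12, a relative of the human very long-chain enzyme, was -0.38 ± 0.22 in wild type (adjusted p = 0.384) and -0.04 in the mutant (0.954). That of acdh-7, a relative of the medium-chain enzyme, was -0.61 ± 0.33 (0.336) and 0.06 (0.955). The enzyme acdh-11, known from the control of fatty acid desaturation at raised temperature, read 974.8 ± 119.8 and 1293 ± 293 in wild type and 932 ± 199 and 1436 ± 182 in the mutant. Its mutant groups, 827, 1162 and 808 against 1360.4, 1643 and 1303, did not overlap, with a log2 difference of 0.64 ± 0.24 (adjusted p = 0.393).

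Set beside the mitochondrial dehydrogenases, the 5 peroxisomal oxidases had a median wild-type difference of 0.02, with 3 positive and 2 negative. Apart from acox-1.2 and acox-1.1 they were acox-1.5 at 0.02 (adjusted p = 0.976), acox-1.6 at 0.23 (0.832) and acox-3 at 0.50 (0.458). The brightest, acox-3, read 1461, 1568 and 1003 in wild type on control RNAi and 2683, 1993 and 1207 under spg-7 RNAi. In the mutant it read 2264, 2575 and 1383 against 2939, 2412 and 1891, so its groups overlapped in both genotypes. In the mutant response the family medians were -0.08 for acdh and 0.22 for acox, and in the difference between responses 0.21 and -0.01.

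The 2 families can also be read array by array, as the median log2 signal of their members. The acdh median was 10.06, 9.85 and 9.71 in wild type on control RNAi and 9.17, 9.78 and 9.49 under spg-7 RNAi. For the mutant it was 10.06, 10.17 and 10.06 against 9.89, 10.16 and 10.02. The acox median was 9.85, 9.26 and 9.54 in wild type on control RNAi and 9.60, 9.32 and 8.58 under spg-7 RNAi, then 9.49, 9.51 and 9.47 against 10.07, 9.55 and 9.21 in the mutant. Arrays of the RNAi groups overlapped within each genotype in both families. For acox in wild type this reading and the median of the 5 single differences do not agree in sign, since the array medians were lower on average under spg-7 RNAi and the median difference was 0.02. Within an array the acox median minus the acdh median ran from -0.58 to -0.17 on wild-type controls and from -0.90 to 0.43 under spg-7 RNAi. In the mutant it ran from -0.66 to -0.57 and from -0.81 to 0.18. The spread was wider under spg-7 RNAi in both genotypes, and members are not replicates, so no test was made between the families.

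**Figure D3:**
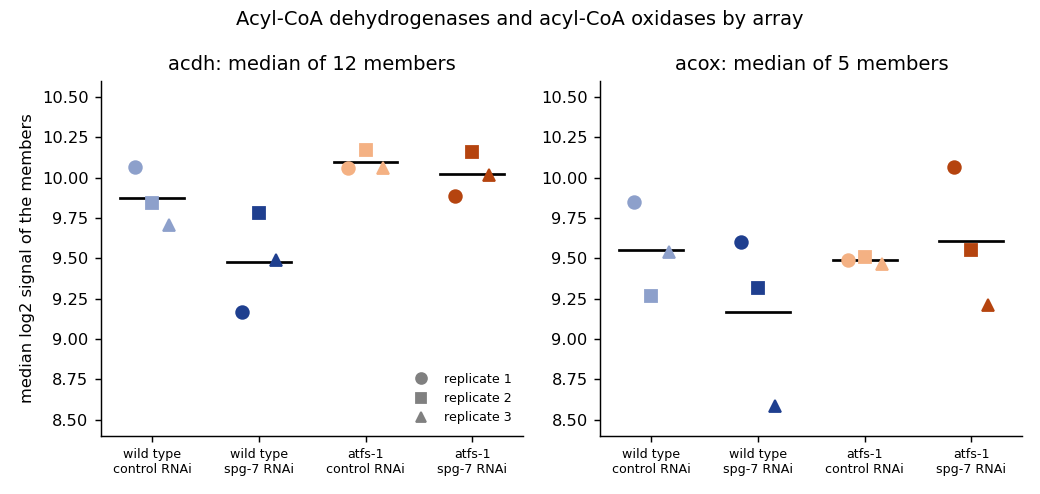
Median log2 signal of the 12 acdh members and of the 5 acox members on each array, by group; black lines are group means of the array medians and point shapes mark replicates, on axes that do not start at 0. Both families have their lowest arrays in wild type under spg-7 RNAi, at 9.17 for acdh and 8.58 for acox, and the RNAi groups overlap within each genotype.

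In the remaining hydratases no difference passed. The largest were those of ech-7, at 771 ± 396 and 1585 ± 434 in wild type (log2 difference 1.15, adjusted p = 0.140) and 0.53 in the mutant (0.694), and of ech-8, at 0.84 (0.228) and 0.68 (0.597). Values for ech-2, ech-3, ech-4 and ech-5 in wild type were -0.13, 0.49, -0.03 and -0.47.

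One gene below the filter separated in wild type. The gene ech-9 lies next to ech-8 in the RefSeq table, and both are relatives of the peroxisomal bifunctional enzyme. Its signal was 27.3, 69.4 and 34.5 in wild type on control RNAi and 272, 159 and 171 under spg-7 RNAi. The mutant read 36.6, 80.5 and 90.5 on control RNAi and 61.7, 60.9 and 52.5 under spg-7 RNAi. All 3 wild-type spg-7 RNAi arrays were above the other 9, and the mutant groups overlapped. The mean in the other 3 groups was below the level of the filter, and detection calls were not used, so these low signals may lie below detection. In a fit of all 17118 genes with no filter the log2 difference was 2.27 ± 0.47 in wild type (adjusted p = 0.0241, limma), -0.14 in the mutant (0.948) and -2.42 between the responses (0.642). A gene that is high in 1 group only can miss a filter on the mean over all arrays, and this reading was chosen after its values had been seen. The other 3 genes below the filter, acs-23, acs-24 and acs-25, had group means between 17.5 and 91.5.

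The second comparison, spg-7 RNAi in the atfs-1 mutant, called 0 of the 46 members with limma, beside 1.17% of all genes, 0.944% higher and 0.221% lower. Unadjusted p was under 0.05 in 3 members and in 983 genes. The differences were positive in 26 members and negative in 20, with a median of 0.08 beside -0.02 over all genes. The groups did not overlap in 4 members that were higher, acdh-11, acs-21, ech-1.2 and ech-3, and in 4 that were lower, acdh-8, acs-10, acs-11 and acs-15, beside 25.9% of all genes, 13.1% higher and 12.7% lower. The value farthest from 0 among the positive ones was that of acdh-6, at 1.26 ± 0.52 (adjusted p = 0.455), with signals of 571, 467 and 129 against 868, 962 and 559.7 that overlapped.

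The difference between the 2 responses was called in 0 of the 46 members and in 0% of all genes with limma. Unadjusted p was under 0.05 in 5 members and in 647 genes. Differences were positive, that is, higher in the mutant, in 29 members and negative in 17, with a median of 0.15 beside -0.01. Of the 3 genes called in wild type, none is therefore shown to respond differently in the mutant. For acs-19, acox-1.2 and ech-1.1 the 95% confidence intervals of the difference, taken singly, were -1.91 to -0.38, 1.15 to 4.03 and 0.47 to 3.04.

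**Figure D4:**
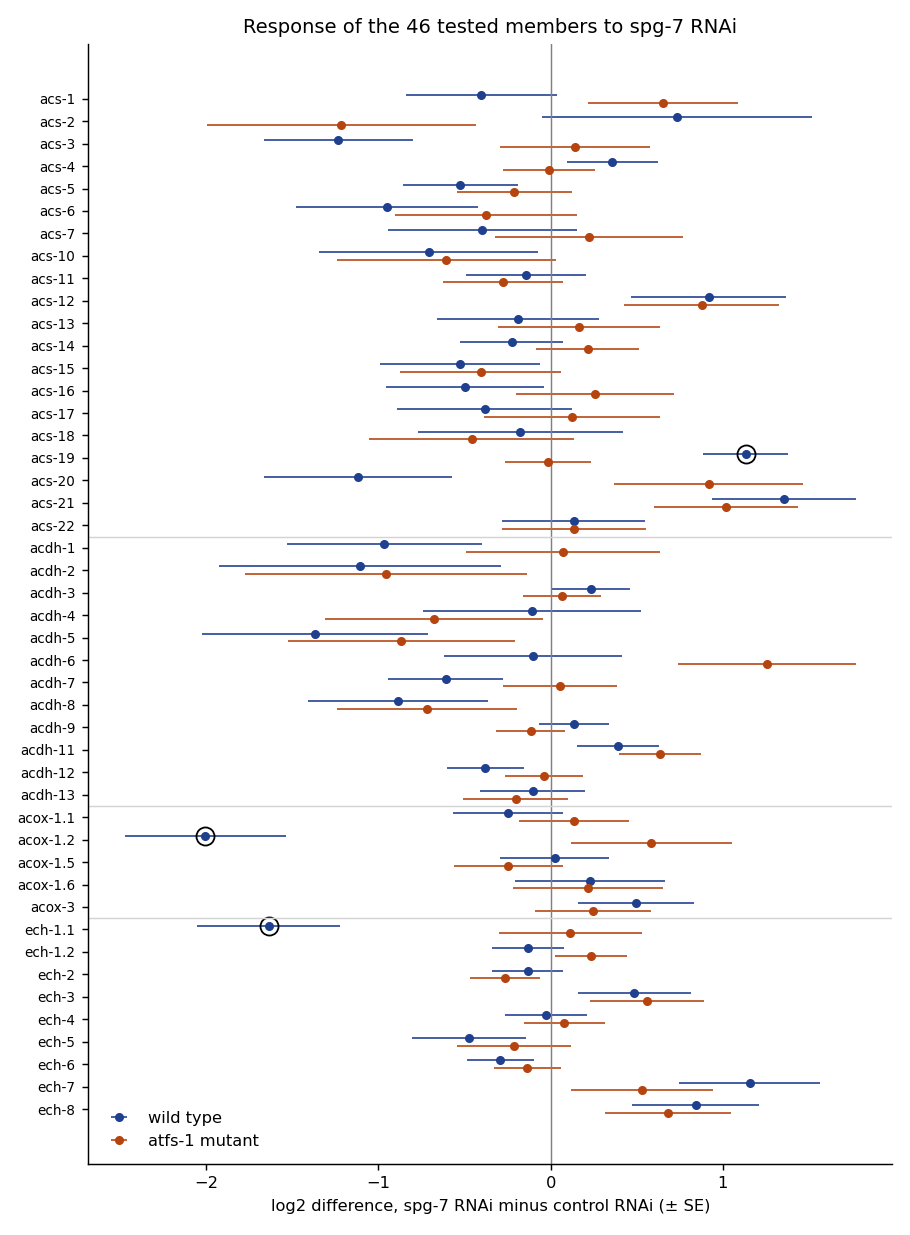
Log2 difference of each of the 46 tested members, spg-7 RNAi minus control RNAi, with SE, in wild type and in the mutant; families are separated by lines and rings mark the 3 calls. In wild type 31 members lie below 0 and in the mutant 20 do, and the values farthest from 0 in wild type are those of acox-1.2 at -2.01 and ech-1.1 at -1.64.

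The mutant and wild type were then compared on each RNAi. On control RNAi 0 of the 46 members and 0% of all genes were called with limma, and unadjusted p was under 0.05 in 6 members and 1113 genes. Groups did not overlap in 6 members that were higher in the mutant, acdh-8, acs-10, acs-18, acs-19, ech-1.1 and ech-4, and in 1 that was lower, acox-1.2, beside 17.6% of all genes, 11.8% higher and 5.79% lower. The value for acox-1.2 was -1.26 ± 0.47 (95% confidence interval -2.28 to -0.24, adjusted p = 0.434), from 799.9 ± 329.6 in wild type to 320.1 ± 60.3 in the mutant. The median over members was 0.08 beside -0.02 over all genes, with -0.09 for acdh and 0.48 for acox.

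On spg-7 RNAi 0 of 46 members were called with limma, beside 0.0963% of all genes, 0.00963% higher and 0.0867% lower, and unadjusted p was under 0.05 in 10 members and 1599 genes. The members lay towards higher signal in the mutant, with 31 positive, 15 negative and a median of 0.45 beside 0.00 over all genes. The family medians were 0.50 for acs, 0.50 for acdh, 0.44 for acox and 0.30 for ech, and all 5 oxidases and 8 of 12 dehydrogenases were positive. Groups did not overlap in 12 members that were higher in the mutant and in 4 that were lower, beside 23% of all genes, 15.7% higher and 7.29% lower. The 4 lower ones were acs-2, acs-11, acs-19 and ech-2. The smallest adjusted p was that of ech-1.1, higher in the mutant by 2.16 ± 0.42 on the log2 scale (95% confidence interval 1.25 to 3.07, adjusted p = 0.0964). This comparison shares its wild-type spg-7 RNAi arrays with the first one.

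Some members varied with sperm transcripts across the arrays. In 6 of the 46 members, acdh-4, acdh-8, acs-6, acs-10, acs-15 and acs-18, the log2 signal had a Pearson r over 0.8 with the median of the 19 sperm markers across the 12 arrays, a threshold chosen after the values had been seen. That is 13.04% of the members beside 652 genes, or 6.28% of all. The values were 0.84 for acdh-4, 0.88 for acdh-8, acs-6 and acs-10, 0.94 for acs-15 and 0.89 for acs-18, over arrays that share the same 4 groups. In the opposite direction acs-11 had a Pearson r of -0.82, and acdh-5 lay just under the threshold at 0.77. The acdh-8 signal was 443, 2452 and 1813 in wild type on control RNAi and 519.8, 914 and 655 under spg-7 RNAi, then 4014, 2905 and 3259 against 1961, 1516 and 2880.2 in the mutant. The sperm median was 12.15, 14.30 and 14.47 in wild type on control RNAi and 13.39, 13.74 and 13.49 under spg-7 RNAi. Mutant arrays had 14.78, 14.49 and 14.21 against 14.32, 14.44 and 14.58. All 3 wild-type arrays under spg-7 RNAi were thus below all 6 mutant arrays, so the sperm median also differed between groups. Wild-type control replicate 1 was the lowest array for acdh-8 and for the sperm list alike, and 0 of the 19 sperm markers were called in any comparison.

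**Figure D5:**
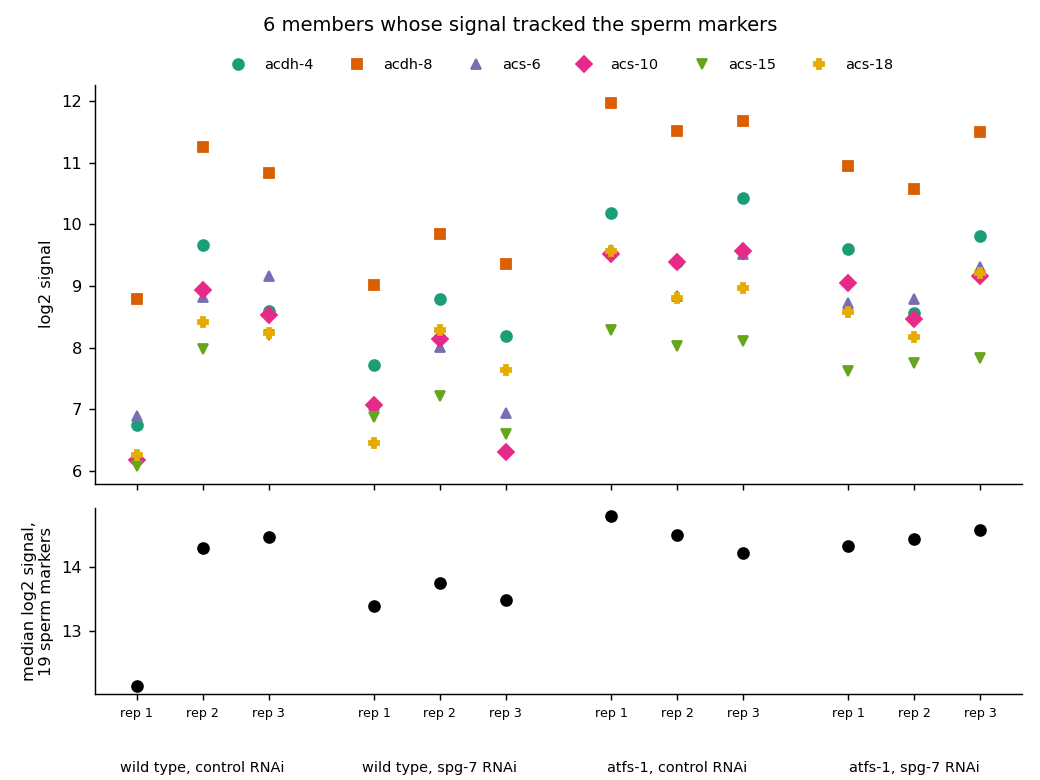
Log2 signal of acdh-4, acdh-8, acs-6, acs-10, acs-15 and acs-18 on each array (upper panel) above the median log2 signal of 19 sperm markers (lower panel), with arrays grouped by genotype and RNAi, on axes that do not start at 0. Wild-type control replicate 1, with a sperm median of 12.15, is the lowest array of the lower panel and the lowest array for each of the 6 genes.

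Calls of 4 of these 6 genes changed when that array was left out. Without it acdh-8 fell in wild type by 1.64 on the log2 scale (adjusted p = 0.0139, limma) and acs-6 by 1.65 (0.0222), against -0.89 (0.381) and -0.95 (0.350) with all arrays. In the same fit 6 members were called in wild type, acox-1.2, acs-19, acdh-5, acdh-8, acs-6 and acs-15, beside 1039 of the 10385 genes. On spg-7 RNAi 5 were then higher in the mutant, acdh-5, acdh-8, acs-6, acs-10 and ech-1.1, beside 5.65% of all genes. There ech-1.1 had an adjusted p of 0.0205 (limma). The array left out is in neither group of this comparison, so its log2 differences stayed the same. What changed was the estimate of spread, which all groups share. The part of sperm content in these values was not tested.

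The lists of neighbouring steps were read in the same fit, all 5 comparisons included. Carnitine palmitoyltransferases pass long-chain acyl groups into mitochondria. Of the 6 tested 0 were called, and the wild-type median was -0.78, with cpt-4 at -1.49 (adjusted p = 0.109), cpt-5 at -1.17 (0.242) and cpt-6 at -1.51 (0.0838), and cpt-1 and cpt-2 at -0.38 and 0.31. In the mutant the median was 0.08. Of 7 genes of later beta-oxidation steps, hydroxyacyl-CoA dehydrogenases and thiolases among them, 0 were called, with a wild-type median of 0.20. There hacd-1 was at 1.204 in wild type (adjusted p = 0.201, limma) and -1.16 in the mutant (0.480). Of 4 genes listed with electron transfer from acyl-CoA dehydrogenases, ivd-1 among them, and of 6 lipases 0 were called, with wild-type medians of 0.04 and 0.54.

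The list of peroxisome genes held 2 calls, both in wild type. Of 16 genes of peroxisome biogenesis and transport 1 rose and 1 fell, beside 3.29% higher and 1.43% lower among all genes. The median was 0.50, beside -0.04 over all genes. The listed ABC transporter gene pmp-5 read 1395, 1286 and 1774 on control RNAi and 244, 398 and 377 under spg-7 RNAi in wild type. What its product carries, and into which organelle, was not tested. The mutant read 989.7, 1043 and 891 against 776, 752 and 351. The groups did not overlap in either genotype. In wild type pmp-5 fell by 2.15 ± 0.32 on the log2 scale (adjusted p = 0.00330, limma), and the call held in all 12 fits that left out 1 array. In the mutant the difference was -0.72 ± 0.32 (adjusted p = 0.508). The gene prx-19, for a peroxin that brings membrane proteins to peroxisomes, rose from 729.6 ± 96.9 to 1363 ± 29.8, by 0.91 ± 0.21 (adjusted p = 0.0328), a call lost in 7 of those 12 fits. Of 13 regulators of fat metabolism 1 was called in wild type, beside 4.73% of all genes. This was atfs-1 itself, which rose by 0.99 ± 0.25 (adjusted p = 0.0469, limma) and lost the call in 10 of the 12 fits.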

How the data were processed

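The authors deposited 1 signal intensity for each probe set, unlogged. MAS5 is named, per the submitters' processing notes, without a version or settings. The mean without the extreme probe sets was 500.1 to 500.2 on every array, so arrays had been scaled to a common level. Leaving out 77 control probe sets of 22625, the array annotation gave a single gene name to 20766 of the remaining 22548, several to 887 and none to 895. Counted among those with several, 1 probe set names 2 members and was not used. All 50 members matched the RefSeq table (assembly WBcel235) by name; that table holds 53 genes of these families, and the other 3 are not analysed here.

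Signals were floored at 1 (0.509% of values) and taken to log2, with no further scaling. Probe sets in the lowest 40% by mean over all arrays, below a signal of 76.0, were dropped, and the brightest remaining probe set stood for each gene, which gave 10385 genes. A linear model with 1 mean per group over 12 arrays was fitted with limma 3.58.1 in R 4.3.3, with a variance trend, and p-values were adjusted by Benjamini-Hochberg over all genes within each of the 5 comparisons. Residual degrees of freedom were 8, and the prior ones had a median of 3.71. Calling was tested on simulated data. Tables were read through data.table (1.17.8), summaries were made in Python 3.11.15 with pandas 2.3.3, and figures with matplotlib 3.10.9. The number of arrays limits the precision.

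The members, the lists and the alternatives were chosen with earlier results of these data known. Members called in any comparison, acs-2, acdh-1 and the brightest of each family are given array by array, with the 3 genes most like each called member; others are named as examples. In the electron transfer list 3 of the 7 names were not tested, 2 of them being other names of tested genes.

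The labels give the groups the same replicate numbers. Deviations from the group means correlated at 0.29 to 0.53 between same-numbered mutant arrays on the 2 RNAi treatments. Any pairing of these arrays is read from the data, not from the design, and the main fit did not use it. In wild type the range was -0.10 to 0.58. Between genotypes it was -0.46 to 0.12 under the control and -0.09 to 0.66 under spg-7 RNAi. Alternatives were other scalings, filters, probe-set choices and model settings, a replicate block, and leaving out arrays.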

Additional observations from a re-analysis of the deposited data

Results flagged for a closer look

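The mean signal of ech-9 in wild type was 4.59 times as high on spg-7 RNAi as on control RNAi, in a gene left out of the tested set by the filter on low signal. The control mean of 43.7 is below the level of the filter and detection calls were not used, so the size of this ratio is uncertain. It is reported as a value outside the main measurement.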

How the results depend on the processing

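No called result changed sign in any fit run. Among results that were not called, the wild-type value of acs-2 ran from -0.23 to 1.48 with single arrays left out, the former without wild-type control replicate 2, and some family medians near 0 changed sign, as given below. In wild type 3 members were called, and single arrays left out gave 0 to 6: 0 without control replicate 3 or spg-7 RNAi replicate 2, and 6 without control replicate 1. Array weights, a fit that stopped before full convergence, gave 6 (1785 genes in all, against 491), the arrays of the compared groups alone 0 (84 genes), an adjusted p under 0.01 0 (154 genes), and leaving out wild-type control replicate 1 and spg-7 RNAi replicate 3 together 7 (1227 genes). Scaling to the hybridisation controls ended the call of acs-19 (adjusted p = 0.224), and quantile normalisation, among other settings, that of ech-1.1 (0.0557). Over all alternatives the wild-type result of ech-1.1 was weaker in 16 and the same in 10. For acox-1.2 these counts were 7 and 20, and for acs-19 they were 6 and 21. In the mutant response array weights called 2 members (1532 genes, against 121), the compared groups alone 0 (320 genes), and single arrays left out 0 to 0. For the difference between responses array weights called 1, acox-1.2, and single arrays left out 0 to 0. In each of the other comparisons array weights raised the count over all genes, as given here. The difference between responses uses all groups, so it has no separate fit of compared groups. Between genotypes on control RNAi array weights called 6 (519 genes, against 0), and single arrays left out 0 to 0. Under spg-7 RNAi array weights called 4 (710 genes, against 10), the 2 arrays left out together 2 (240 genes), and single arrays left out 0 to 5. The latter was without wild-type control replicate 1, which is in neither group of that comparison. With the replicate number as a block, which fits the same replicate effects to both genotypes, 3 members were called in wild type, the same genes. In each other comparison 0 were called, so this block changed no call. Scaling to the hybridisation controls put the median of all genes at -0.25 in wild type, -0.77 in the mutant, -0.55 between the responses and 0.43 between genotypes on control RNAi. It moved the acdh medians to -0.45, -0.83, -0.34 and 0.36, and the acox medians in the last 3 to -0.53, -0.55 and 0.93. The acdh median between genotypes on control RNAi was 0.14 with array weights and 0.16 without the 2 arrays, and under spg-7 RNAi 0.27 with arrays centred on their medians, where that of all genes was -0.22. The acox median in wild type was 0.40 without the 2 arrays. With single arrays left out the acdh medians ran from -0.43 to -0.24 in wild type, -0.24 to -0.04 in the mutant, 0.00567 to 0.34 between responses, -0.12 to 0.16 between genotypes on control RNAi and 0.34 to 0.54 under spg-7 RNAi. The acox medians ran from -0.27 to 0.40, -0.02 to 0.43, -0.42 to 0.34, 0.18 to 0.72 and 0.07 to 0.66. The cause of these shifts was not tested.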
